A study of Mus musculus with 4 samples.

Results

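Interferon-responding Pax7+ cells were muscle stem cells outside the cell cycle that carried RNA of the interferon-induced GTPases Iigp1 and Gbp2. They were drawn by a fixed rule from single cell RNA sequencing of myogenic progenitors of injured mouse muscle. A member had at least 5000 unique molecular identifiers (UMIs, which count captured RNA molecules), at least 1000 genes and at most 10% mitochondrial UMIs. It had at least 1 UMI of Pax7, none of Myog and none of Cd74. Per 10000 UMIs of the cell, the sum of the cycling genes Top2a, Mki67, Cenpf, Rrm2 and Tyms was below 1, and the sum of Iigp1 and Gbp2, called the gate level here, was at least 3. Of 16519 barcodes, 9611 passed the quality limits, 1688 of these (17.6%) were non-cycling Pax7+ cells, and 158 were members. The other 1530 non-cycling Pax7+ cells, below the gate, are called interferon-low.

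The 4 libraries came from tibialis anterior muscle of 12-week-old male mice on day 6 after cardiotoxin injection, which kills the fibres and sets off regeneration from stem cells. Cells were sorted for α7 integrin and against CD45, CD31 and Sca1, which removes most blood and vessel cells, and each library pooled 3 mice. The control group, Pax7Cre, held 2 libraries from mice with a Cre recombinase under the Pax7 gene, and the miR-501KO group held 2 libraries from Pax7CremiR-501fl/Y mice, whose floxed miR-501 precursor is removed in cells that have expressed Pax7 and their progeny. All mice thus carried Pax7Cre. Replicate 1 of both groups came from 1 run and replicate 2 from another. Values in 4 libraries are given throughout in the order Pax7Cre replicate 1, Pax7Cre replicate 2, miR-501KO replicate 1 and miR-501KO replicate 2. The tables of 3′ UMI counts list no feature for miR-501, so its deletion could not be checked here.

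The libraries held 73665012 to 117527749 UMIs, and cells past the quality limits had a median of 25824.5 to 35544 UMIs per library. The miR-501KO replicate 1 library stood apart by its 727 macrophage-like cells, against 110, 52 and 77 in the other libraries. No member shared its barcode with a cell of another library, while 18 barcodes among all cells past the quality limits did.

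Interferons are secreted signals that cells release on contact with microbes or tissue damage. Type I interferons act through Ifnar1 and Ifnar2, and type II interferon, the product of Ifng from T and NK cells, acts through Ifngr1 and Ifngr2. The receptors switch on Jak kinases, which phosphorylate transcription factors that bind DNA at interferon-stimulated response elements (ISRE) or at gamma-activated sites (GAS). Iigp1 belongs to the immunity-related GTPases (IRG) and Gbp2 to the guanylate-binding proteins (GBP), families that attack the vacuoles of intracellular parasites. Pax7 is the transcription factor that marks muscle stem cells, also called satellite cells.

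The share of non-cycling Pax7+ cells that were members was 5.69% (25 of 439 cells) and 6.39% (25 of 391) in the Pax7Cre libraries. It was 14.8% (56 of 378) and 10.8% (52 of 480) in the miR-501KO libraries. Both miR-501KO libraries lay above both Pax7Cre libraries. The 95% Wilson intervals, which cover counting error only, were 3.89% to 8.27%, 4.37% to 9.27%, 11.6% to 18.7% and 8.36% to 13.9%, so they did not overlap in the first run and overlapped in the second. The mean was 12.8% ± 2.82 (SD, n = 2) in miR-501KO and 6.04% ± 0.49 (SD, n = 2) in Pax7Cre, a difference of 6.78 percentage points. A two-sided exact permutation test gave p = 0.33, the smallest p that 2 libraries against 2 allow. Within runs the difference was 9.12 points in the first and 4.44 points in the second. When each cell was thinned to 5000 UMIs and 2 UMIs were asked of the gate genes, the shares were 6.61%, 8.18%, 15.6% and 11%.

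**Figure D1:**
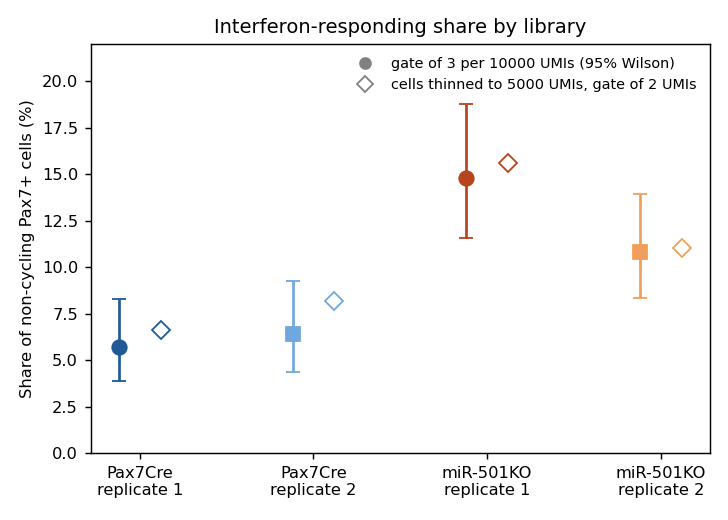
Share of non-cycling Pax7+ cells past the interferon gate (y axis, percent) in each of the 4 libraries (x axis). Filled points carry 95% Wilson intervals and open diamonds are the shares after thinning each cell to 5000 UMIs. The 2 Pax7Cre libraries sit at 5.69% and 6.39% and the 2 miR-501KO libraries at 14.8% and 10.8%.

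Other cells of the same libraries passed the same gate at other rates. Among cells with Myog, the factor of myogenic commitment, 2.56%, 4.06%, 5.76% and 4.58% passed, and among cycling Pax7+ cells without Myog 3.42%, 4.56%, 6.08% and 6.71%. Macrophage-like cells passed in 5.45% (6 of 110), 7.69% (4 of 52), 1.24% (9 of 727) and 3.90% (3 of 77), and mural-like cells, the pericytes and smooth muscle of vessels, in 30.9% (75 of 243). The level of Iigp1 per 10000 UMIs was 0.150, 0.121, 0.313 and 0.0877 in macrophage-like cells and 0.423, 0.674, 1.60 and 0.958 in non-cycling Pax7+ cells without Myog. Gbp2 was at 0.314, 0.504, 0.174 and 0.299 in macrophage-like cells and 0.208, 0.327, 0.370 and 0.372 in those Pax7+ cells. For Iigp1 the Pax7+ cells thus stood above macrophage-like cells of the same library in all 4, whereas for Gbp2 they stood below them in both Pax7Cre libraries. Of these Pax7+ cells 5.70%, 7.26%, 16.6% and 11.1% passed, and in the Pax7Cre libraries these shares lay within the 95% Wilson intervals of the macrophage-like shares. The library with the most macrophage-like cells also had the highest share of members. Its macrophage-like cells, however, held less macrophage RNA and more muscle fibre RNA than those of the other libraries. Whether free RNA or macrophages had a part in the share was not tested.

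The gate level had a median of 5.16, 11.2, 7.59 and 10.1 per 10000 UMIs over the members of each library and reached 42.6, 59.1, 71.4 and 51.6. Both gate genes were found in 109 members, Iigp1 alone in 39 and Gbp2 alone in 10. Just inside the gate, at 3 to 4 per 10000, lay 25 members, and just outside, at 2 to 3, lay 49 cells. Of the interferon-low cells, 62.3% had no UMI of either gene. Members had a median of 22184, 26509, 25864 and 19324.5 UMIs against 25756, 29471.5, 27160.5 and 23675 in interferon-low cells, so members were the shallower cells in every library.

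All values that follow for members against interferon-low cells are descriptions without a test, because the gate that split the cells reads the same RNA. UMIs were summed over the cells of a class in a library and scaled to 1000000 UMIs of the sum (CPM), and ratios are on the log2(CPM + 1) scale. Of 11112 genes with a mean of at least 2 CPM, 65 (0.585%) were at least 2-fold higher in members in all 4 libraries and 25 (0.225%) at least 2-fold lower. A further look at direction alone found 1466 genes (13.2%) higher in all 4 libraries and 1640 (14.8%) lower in all 4. The median log2 ratio over all these genes was -0.04. A gene with little RNA in interferon-low cells could be kept through its level in members, so counts over the genes kept describe these libraries only. The 2 gate genes are among the 65, and the gate set their values: Iigp1 was at 671, 945, 889 and 932 CPM in members and 11.8, 14.8, 26.6 and 15 CPM in interferon-low cells.

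All 7 IRG genes kept besides Iigp1 were at least 2-fold higher in members in all 4 libraries, with a median log2 ratio of 3.17. Irgm1, a regulator of the family, was at 122, 248, 207 and 236 CPM in members against 14.2, 19, 29 and 18.9 CPM in interferon-low cells, a log2 ratio of 3.25 ± 0.41 (SD, n = 4). Igtp, an effector on parasite vacuoles, was at 37.5, 70.4, 30.4 and 46.1 CPM against 2.33, 4.23, 5.16 and 4.77 CPM. No library of members fell within the range of the interferon-low libraries for either gene. Of 5 GBP genes kept besides Gbp2, 4 met the same limit. Gbp7 was at 181, 171, 165 and 213 CPM against 14.1, 18.8, 35.2 and 21 CPM, a log2 ratio of 3.05 ± 0.60 (SD, n = 4). Gbp9 was the exception, with log2 ratios from -0.05 to 1.79. IRG and GBP genes lie in families of similar sequence, and a 3′ read that matches several members may be lost or misplaced.

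**Figure D2:**
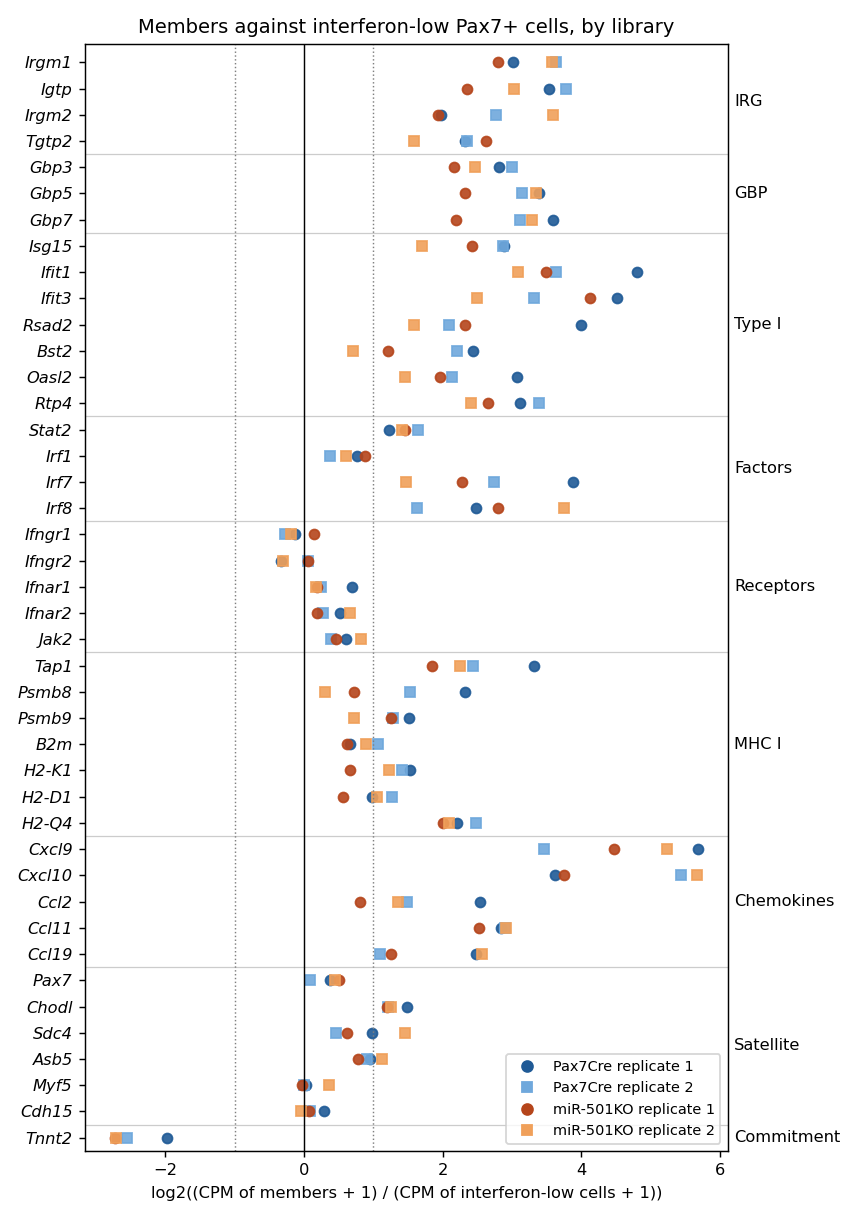
Log2 ratio of CPM + 1 in members to CPM + 1 in interferon-low cells (x axis) for named genes (rows, grouped by list), 1 point per library with colour for group and shape for run. Dotted lines mark 2-fold. Interferon-induced genes such as Irgm1 (2.80 to 3.64) lie to the right in all 4 libraries, the receptors Ifngr1 and Ifngr2 lie around 0, and Tnnt2 lies at -1.98 or below.

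Genes that respond above all to type I interferon were also higher. Of 32 genes of that list kept, 14 were at least 2-fold higher in all 4 libraries, 28 were higher in all 4 and none was lower in all 4, with a median log2 ratio of 1.66. Isg15, a ubiquitin-like modifier, was at 243, 220, 341 and 142 CPM in members against 32, 29.4, 63.0 and 43.0 CPM in interferon-low cells. Ifit1, which binds foreign RNA, was at 109, 65.8, 109 and 57.9 CPM against 2.95, 4.40, 8.78 and 5.92 CPM, a log2 ratio of 3.75 ± 0.73 (SD, n = 4). Bst2, which tethers budding viruses, had the log2 ratios 2.43, 2.2, 1.21 and 0.70, with the lowest in miR-501KO replicate 2.

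Promoters of some of these genes are shown because they carry the ISRE or GAS letters close to the start of transcription. The motifs searched were GAAANNGAAA for the ISRE and TTCNNNGAA for the GAS, on both strands, in RefSeq windows from 250 bases before to 50 bases after the start (build GRCm38.p6, not the GRCm39 build of the counts). GAS matches read the same on both strands and overlapped no ISRE match in the windows shown. Capitals mark the matching letters, and all sequences read 5′ to 3′ in the sense of the gene. Gbp2 at chr3:142620413-142620712 (plus strand) had 1 ISRE, Gbp7 at chr3:142530086-142530385 (plus strand) 1 ISRE and 2 GAS, and Igtp at chr11:58199306-58199605 (plus strand) 1 of each. Isg15 at chr4:156200769-156201068 (minus strand) had 3 overlapping ISRE matches, and Cxcl10 at chr5:92348840-92349139 (minus strand) 1 ISRE farther upstream.
Gbp2: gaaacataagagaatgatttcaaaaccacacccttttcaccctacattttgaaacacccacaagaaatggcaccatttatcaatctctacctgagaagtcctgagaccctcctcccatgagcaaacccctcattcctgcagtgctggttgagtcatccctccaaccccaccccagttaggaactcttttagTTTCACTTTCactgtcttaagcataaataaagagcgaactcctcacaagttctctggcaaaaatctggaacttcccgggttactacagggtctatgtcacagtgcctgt
Gbp7: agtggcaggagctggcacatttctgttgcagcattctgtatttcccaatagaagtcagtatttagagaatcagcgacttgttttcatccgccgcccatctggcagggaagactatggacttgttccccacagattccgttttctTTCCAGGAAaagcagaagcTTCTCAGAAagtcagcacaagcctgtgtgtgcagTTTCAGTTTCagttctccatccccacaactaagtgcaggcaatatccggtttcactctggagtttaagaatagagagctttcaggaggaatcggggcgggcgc
Igtp: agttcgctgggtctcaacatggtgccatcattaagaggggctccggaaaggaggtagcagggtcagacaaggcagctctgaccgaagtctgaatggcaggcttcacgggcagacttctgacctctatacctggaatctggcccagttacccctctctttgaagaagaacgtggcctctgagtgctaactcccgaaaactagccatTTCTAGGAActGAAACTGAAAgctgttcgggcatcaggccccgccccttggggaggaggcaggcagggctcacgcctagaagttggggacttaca
Isg15: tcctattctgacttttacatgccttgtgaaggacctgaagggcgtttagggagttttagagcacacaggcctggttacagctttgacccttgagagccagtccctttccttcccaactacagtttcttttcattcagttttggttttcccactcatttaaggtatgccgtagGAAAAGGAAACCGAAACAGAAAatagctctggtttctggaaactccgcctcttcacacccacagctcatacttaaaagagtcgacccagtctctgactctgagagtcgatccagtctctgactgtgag
Cxcl10: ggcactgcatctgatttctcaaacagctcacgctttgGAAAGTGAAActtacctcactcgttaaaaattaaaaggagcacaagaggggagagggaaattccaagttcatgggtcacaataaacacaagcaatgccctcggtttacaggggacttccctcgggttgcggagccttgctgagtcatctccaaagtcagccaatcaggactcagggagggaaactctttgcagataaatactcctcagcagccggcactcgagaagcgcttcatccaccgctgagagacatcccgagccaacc

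Of the 65 genes at least 2-fold higher in members, 49 matched a RefSeq promoter, with 55 windows. The ISRE letters were in 20 of these windows (36.4%), against 3.44% of all 32851 windows and 2.97% of the 11104 windows of genes kept. The GAS letters were in 8 windows (14.5%), against 8.30% of all windows and 6.62% of those of genes kept. Of the 25 genes at least 2-fold lower, 15 matched, and the ISRE letters were in 0 and the GAS letters in 1 of their 19 windows. The gate gene Gbp2 is in the higher set, and the whole set came from a split of the cells on interferon-induced RNA. Its share of ISRE letters thus follows in part from the rule and is a description. A match is a stretch of letters and not a bound site, and an absent match says only that these letters are not in the window.

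None of the 9 interferon ligand genes listed, Ifng, Ifnb1 and Il27 among them, had a UMI in a member. That is 0 of 158 cells, which allows a share of members with a UMI of up to 1.90%. The list was also at 0 CPM in the interferon-low cells of all 4 libraries, so its absence did not set members apart. Among all 9611 cells past the quality limits, Ifng was found in 13, Ifnb1 in 2 and Il27 in 15. The T and NK cell markers, whose cells make Ifng, were also at 0 UMIs in members for 10 of 10 genes. In interferon-low cells they summed to only 1.70, 0.70, 0.77 and 0.35 CPM.

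The receptors of type II interferon were found in both classes. Ifngr1 was at 64.4, 64.3, 85.0 and 66.7 CPM in members and 70.7, 78.1, 77.0 and 76.3 CPM in interferon-low cells, and Ifngr2 at 41.1, 61.2, 66.6 and 42.2 CPM against 51.9, 59.0, 64.0 and 52.3 CPM. Neither was higher or lower in all 4 libraries. Their log2 ratios of -0.12 ± 0.18 and -0.13 ± 0.21 (SD, n = 4) turned to 0.09 for Ifngr1 without cells that held markers of other cell types and to 0.02 for Ifngr2 in thinned cells. Ifnar1, Ifnar2 and the kinase Jak2 were higher in all 4 libraries, at log2 ratios of 0.33, 0.41 and 0.57, all below 2-fold.

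Of 10 transcription factor genes of the pathway kept, 4 were at least 2-fold higher in all 4 libraries and 7 higher in all 4. Irf7, which drives type I interferon genes, was at 62.6, 35.2, 43.2 and 24.5 CPM in members against 3.31, 4.40, 8.12 and 8.22 CPM in interferon-low cells. Irf8, better known from myeloid cells, was at 32.2, 42.8, 60.2 and 127 CPM against 4.92, 13.2, 7.79 and 8.49 CPM, and 76 members held a UMI of it. Irf1 had a smaller log2 ratio of 0.66 on a high level in interferon-low cells of 82.5, 127, 122 and 127 CPM. Of 7 feedback inhibitors kept, 5 were higher in all 4 libraries. Usp18, which blocks signalling at Ifnar2, was at 28.6, 18.4, 29.7 and 8.83 CPM against 1.43, 2.03, 3.07 and 1.5 CPM, whereas Socs3 had a log2 ratio of -0.39 ± 0.79 (SD, n = 4).

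Antigen presentation on MHC class I was higher in part. Of 21 genes kept, 3 were at least 2-fold higher in all 4 libraries, 12 were higher in all 4, and 2, the chaperones Calr and Canx, were lower in all 4. Tap1, a subunit of the peptide transporter, was at 91.2, 73.4, 58.8 and 57.9 CPM in members against 8.24, 12.7, 15.7 and 11.4 CPM in interferon-low cells. The light chain B2m was at 345, 568, 468 and 483 CPM against 216, 271, 305 and 260 CPM, a log2 ratio of 0.81 ± 0.21 (SD, n = 4). H2-Q4, a non-classical heavy chain with close copies, was at 25.0, 53.5, 70.1 and 44.2 CPM against 4.66, 8.81, 16.8 and 9.64 CPM. The MHC class II list could not be compared, as the rule asked for no Cd74 and only 2 of its 9 genes were kept. Of 12 checkpoint, adhesion and death receptor genes kept, 9 were higher in all 4 libraries. Among them were Cd274, the ligand PD-L1, at a log2 ratio of 2.2 and the death receptor Fas at 1.44.

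The chemokine list was higher in part. Of 15 chemokine genes kept, 6 were higher in all 4 libraries and 1, Ccl21a, was lower in all 4. Cxcl1 was found in 106 of 158 members, Cxcl10 in 66 and Ccl2 in 61, and single members held much of the RNA of several of them. These counts are of members alone and are not set against interferon-low cells. In Pax7Cre replicate 2 Cxcl1 was lower in members than in interferon-low cells. Cxcl10, which attracts activated T cells, was at 190, 805, 433 and 721 CPM in members against 14.5, 17.6, 31.4 and 13.2 CPM in interferon-low cells. In each library 1 member held 24.5%, 63.9%, 48.4% and 18.8% of its library's member UMIs. Cxcl9, which binds the same receptor, was at 152, 50.5, 152 and 143 CPM against 1.97, 3.70, 5.93 and 2.83 CPM, from 19 members, and 1 member held 90.6%, 72.7%, 28.8% and 40.4%. Ccl11, an attractant of eosinophils, was at 42.9, 129, 143 and 106 CPM against 5.10, 16.3, 24.1 and 13.3 CPM, from 33 members, and 1 member held 37.5%, 78.6%, 28.7% and 62.0%. Ccl19, a ligand of Ccr7 with close copies in the mouse genome, was at 41.1, 29.1, 38.9 and 92.3 CPM against 6.54, 13.1, 15.7 and 14.7 CPM, from 52 members. After thinning to 5000 UMIs, 10 members held both Cxcl9 and Cxcl10, and 3 held both Ccl11 and Ccl19. Ccl11 and Ccl19 thus marked a minority of the members.

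The satellite cell list summed to 3582, 3696, 3841 and 4378 CPM in members against 2627, 2974, 3096 and 3099 CPM in interferon-low cells. Of 25 genes, 10 were higher in all 4 libraries, 2, Hes1 and Heyl, were lower in all 4, and the median log2 ratio was 0.18. Over all genes kept, 13.2% were higher and 14.8% lower in all 4, so the 2 lower genes of 25 lay below that share. Chodl, a membrane lectin of quiescent satellite cells, was at 225, 269, 270 and 400 CPM in members against 79.8, 115, 117 and 167 CPM in interferon-low cells, a log2 ratio of 1.29 ± 0.13 (SD, n = 4), the only gene of the list at least 2-fold higher in all 4 libraries. In thinned cells Chodl was found in 65.8% of members and 31.8% of interferon-low cells. Pax7, of which the rule asked 1 UMI in both classes, was at 204, 199, 283 and 252 CPM against 156, 188, 198 and 185 CPM. Myf5, an early myogenic factor, was at 325, 297, 297 and 379 CPM against 319, 295, 302 and 295 CPM, a log2 ratio of 0.09 that turned to -0.13 in thinned cells. Sdc4, a heparan sulfate proteoglycan of satellite cells, and Asb5, a substrate adaptor of ubiquitin ligases, were higher in all 4 libraries at log2 ratios of 0.88 and 0.94.

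None of the 12 commitment genes kept was higher in all 4 libraries, and only 1, Tnnt2, was lower in all 4. The list summed to 2255, 2162, 1905 and 2018 CPM in members against 2484, 2360, 2022 and 2094 CPM in interferon-low cells, a small difference. Tnnt2, the troponin of immature muscle, was at 37.5, 12.2, 12.7 and 12.8 CPM in members against 151, 76.6, 90.1 and 89.1 CPM in interferon-low cells, a log2 ratio of -2.49 ± 0.35 (SD, n = 4). The metal-binding proteins Mt1 and Mt2 were higher in all 4 libraries, at log2 ratios of 1.19 ± 0.41 and 1.05 ± 0.58 (SD, n = 4). The immediate early genes Fos and Jun were lower in all 4, at -1.26 ± 1.21 and -0.68 ± 0.45 (SD, n = 4), a wide spread for Fos.

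Beyond the lists, Ifi47, another interferon-induced GTPase, was the gene with the largest lowest ratio, at 51.9, 75.0, 45.3 and 35.3 CPM in members against 2.60, 2.64, 3.51 and 2.48 CPM in interferon-low cells. The schlafens Slfn8 and Slfn9, the nuclear factor Helz2, the restriction factor Trim12a and the Isg15 conjugating enzyme Ube2l6 were in the same group of 15. So were the small GTPase Arl4d at a log2 ratio of 1.88 ± 0.09 (SD, n = 4) and the hormone gene Erfe at 1.90. Among the 10 named as lower was Fn1, which encodes the matrix protein fibronectin, at 191, 91.8, 80.0 and 62.8 CPM against 434, 345, 521 and 421 CPM. Igfbp2, a binding protein of insulin-like growth factors, was at 1.79, 1.53, 4.96 and 2.94 CPM against 17.7, 14.6, 19.2 and 12.3 CPM. Neither gene had a member library within the range of the interferon-low libraries.

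Cells that fell in the gate spanned a range of interferon-induced levels. Over 953 cells without a gate UMI, 577 below the gate, and 58, 40 and 60 members at 3 to 6, 6 to 12 and at least 12 per 10000, the summed IRG genes other than Iigp1 were at 28.4, 83.3, 278, 708 and 842 CPM. The type I list was at 391, 745, 1441, 1546 and 2300 CPM, and the MHC class I list at 2272, 2451, 2630, 2634 and 3317 CPM. Cells below the gate with a UMI of Iigp1 or Gbp2 thus lay between cells without one and members. Chodl was at 117, 124, 237, 334 and 355 CPM, so its step lay at the gate, and Pax7 at 179, 184, 267, 226 and 237 CPM. Each bin of members held 6 to 23 cells per library, most of them under 20, and single libraries did not keep the order of the pooled values.

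**Figure D3:**
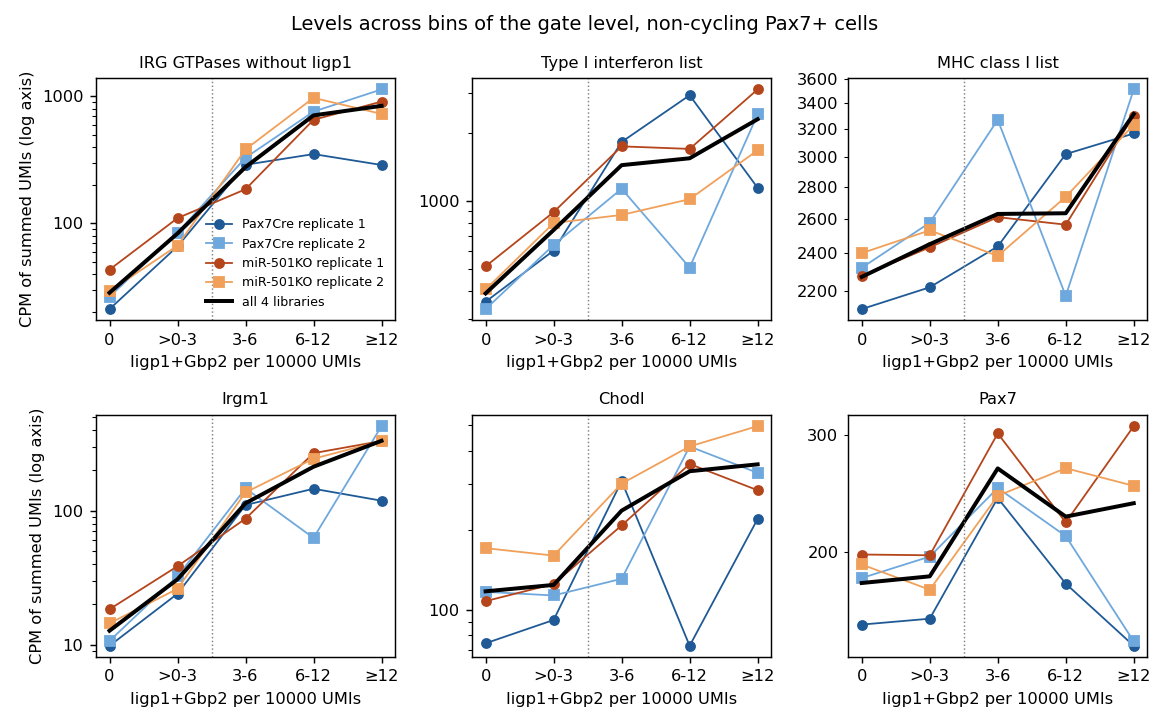
Summed CPM (y axes, log scale) of 3 gene lists and of Irgm1, Chodl and Pax7 across 5 bins of the gate level, the sum of Iigp1 and Gbp2 per 10000 UMIs (x axis), for each library (coloured) and all 4 libraries together (black). The dotted line marks the gate. The IRG genes without Iigp1 go from 28.4 to 842 CPM over all libraries, while the member bins of single libraries scatter.

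Over all 1688 non-cycling Pax7+ cells, the genes whose level followed the gate level most closely were Irgm1, with a mean Pearson r over the 4 libraries of 0.60, then Gbp7 (0.56), Rtp4 (0.48), Igtp (0.47) and Ifi47 (0.47). These correlations are over cells that share a library and its depth and are a description. Within the members, the summed IRG and GBP genes other than the gate genes had a median of 4.57, 7.47, 6.63 and 10.4 per 10000 UMIs and ranged from 0 to 53.3. The type I list had medians of 9.32, 7.99, 11.6 and 10.3 and reached 105. Of the 158 members, 109 (69.0%) lay above the 95th percentile of their library's interferon-low cells for the IRG and GBP genes and 54 (34.2%) for the type I list. The like counts were 42 (26.6%) for chemokines, 29 (18.4%) for MHC class I and 21 (13.3%) for satellite cell genes.

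Markers of other cell types were read in the same way. At least 1 UMI of 10 defining markers of leukocytes and vessel lining, such as Ptprc, C1qa and Pecam1, was found in 36%, 24%, 21.4% and 23.1% of members and in 22.7%, 23.5%, 27.0% and 16.8% of interferon-low cells. The 14 macrophage markers summed to 41.1, 22.9, 42.5 and 23.6 CPM in members and 168, 24.9, 289 and 184 CPM in interferon-low cells. No member was macrophage-like, whereas the interferon-low sums were not freed of such cells. In non-cycling Pax7+ cells without Myog and not named for another cell type, with or without Cd74, the markers summed to 28.4, 23.9, 33.4 and 21.1 CPM. Members lay below interferon-low cells in every library but above this class in all except Pax7Cre replicate 2. Ptprc, the gene of CD45, had 1 UMI over all 158 members together. A single member, in Pax7Cre replicate 2, carried mural markers and held 99.4% of the 333 UMIs of Rgs5 there. Without mural-like cells in members and in interferon-low cells, 64 genes in place of 65 were at least 2-fold higher in all 4 libraries. The mean log2 ratio of Ccl11 was then 2.28 in place of 2.79. Values between genotypes without mural-like cells are given beside the tests that follow.

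The genotypes were first compared over all non-cycling Pax7+ cells, where the interferon gate plays no part. Iigp1 was at 43.2, 65.4, 142 and 90.8 CPM, and both miR-501KO libraries lay above both Pax7Cre libraries. Its log2 fold change was 1.02 ± 0.20 (SE, n = 2 and 2), and the adjusted p of edgeR's quasi-likelihood test with Benjamini-Hochberg adjustment over 12481 genes was 0.0510, just above the threshold of 0.05. With the run as a block the edgeR adjusted p was 7.1e-04, and over 12 alternatives the adjusted p for Iigp1 ranged from 6.8e-07 to 0.344, below the threshold in 9 of them. The highest was without Pax7Cre replicate 1 (log2 fold change 0.78), and without each of the other libraries it was 6.2e-04, 0.0230 and 7.9e-05. In these sums more cells past the gate and more RNA per cell cannot be told apart. Gbp2, the other gate gene, was at 21.1, 31.4, 35.9 and 36.3 CPM, with a log2 fold change of 0.39 and an edgeR adjusted p of 0.999. Whether the 2 genes differed in their change between genotypes was not tested.

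Across all genes, 12 of 12481 (0.0961%) passed the edgeR threshold between genotypes in non-cycling Pax7+ cells, all higher in miR-501KO, and 421 had an unadjusted p under 0.05. With the run as a block 79 (0.633%) passed, 73 (0.585%) higher and 6 (0.0481%) lower, and all 12 were among them. With each library left out in turn, 55, 60, 64 and 117 passed. Of the interferon and chemokine lists, none had a gene among the 12 apart from Ctss of the MHC class II list, and 16 genes of these lists besides Ctss were among the 79. The direction was shared within the lists: 8 of 8 IRG genes (median log2 fold change 0.85), 5 of 6 GBP genes (0.74), 32 of 32 type I genes (0.61), 9 of 10 transcription factors (0.32), 15 of 21 MHC class I genes (0.18) and 15 of 17 chemokines (0.51) were higher in miR-501KO, against 6316 of all 12481 genes, whose median was 0.00. Genes of a list share cells and libraries and are not independent. Of 14 macrophage markers, 13 were also higher, with a median of 1.03, and with the run as a block 7 passed, with a median of 1.35. Of 10 myofibre markers all 10 were higher, with a median of 0.99 and 5 past the threshold. Their part in the interferon values was not tested. Without cells that held markers of other cell types, Iigp1 had a log2 fold change of 1.20 and an edgeR adjusted p of 0.0123. Without mural-like cells, whether members or interferon-low, 17 genes passed, and Iigp1 (log2 fold change 1.07, edgeR adjusted p = 0.0246) and Cxcl10 (1.43, edgeR adjusted p = 0.00123) were among those past the threshold.

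Single genes showed how the runs differed. Isg15 was at 42.0, 39.8, 100 and 51.2 CPM, and Ifit1 at 8.02, 7.74, 22.2 and 10.2 CPM, so that for both genes miR-501KO replicate 1 stood well above the other 3 libraries. Their log2 fold changes of 0.80 and 0.94 did not pass, with edgeR adjusted p of 0.311 and 0.343. Cxcl9 was at 9.12, 6.25, 25.6 and 14.4 CPM, a log2 fold change of 1.29 ± 0.24 (SE) with an edgeR adjusted p of 0.0501, and 2.3e-05 with the run as a block, within a range of 2.5e-07 to 0.277 over 12 alternatives. Cxcl9 passed in 6 of these 12 alternatives. With each library left out in turn, in the order given, its log2 fold change was 1.62, 1.005, 0.88 and 1.60. Cxcl10 was at 22.9, 60.5, 85.3 and 71.7 CPM, with an edgeR adjusted p of 0.502, and 0.00143 with the run as a block, within a range of 9.4e-07 to 1.0. Rtp4, a chaperone induced by interferon, was at 8.44, 10.9, 23.5 and 16.3 CPM, with an edgeR adjusted p of 0.0866, and 0.00726 with the run as a block, within a range of 4.8e-04 to 0.360. Gbp7, Irgm1, H2-Q4, Oasl2, Ifit1, Ccl11 and Ccl19 also passed with the run as a block and not without it. Pax7 at 158, 189, 209 and 191 CPM and Chodl at 86.7, 124, 137 and 186 CPM passed neither way.

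**Figure D4:**
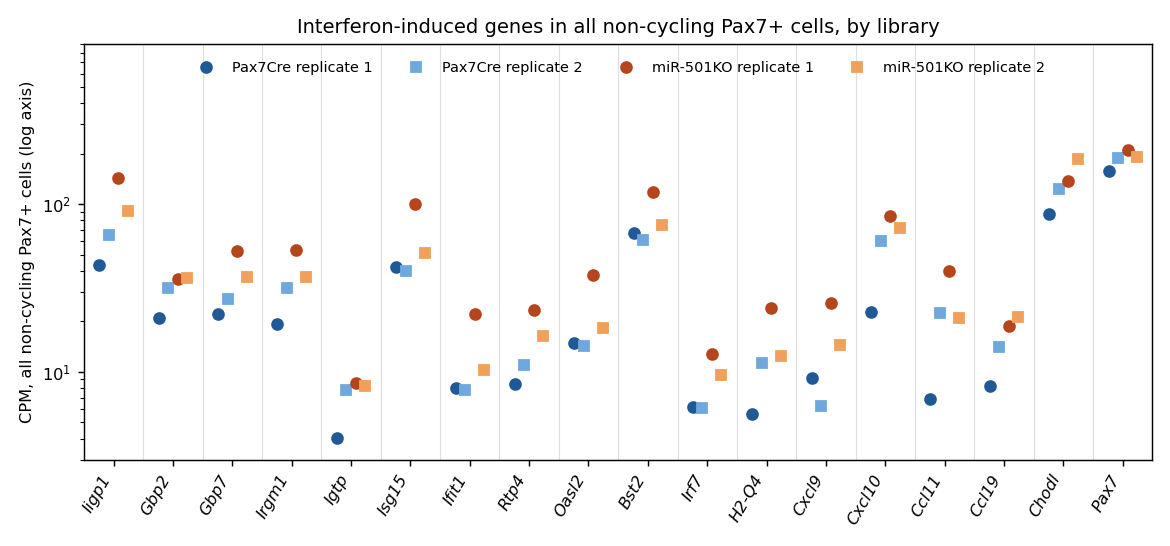
CPM (y axis, log scale) of interferon-induced genes, Chodl and Pax7 (x axis) summed over all non-cycling Pax7+ cells of each of the 4 libraries. Iigp1 lies at 142 and 90.8 CPM in the miR-501KO libraries and at 43.2 and 65.4 CPM in the Pax7Cre libraries, while Pax7 lies between 158 and 209 CPM in all 4.

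By the naming rule, the genes past the threshold were Crabp1, a retinoic acid carrier, with a log2 fold change of 5.38, the chemokine Cxcl3 (3.97), the matrix gene Thbs4 (3.71), the lysosomal protease Ctss (2.54) and Ccnb1ip1 (2.35), and 6 of the other 7 encode proteins of the muscle fibre, with the membrane glycoprotein gene Gpnmb as the exception. Cxcl3 was not in the chemokine list. These folds stood on low levels that differed widely between the miR-501KO libraries. Crabp1 was at 0, 0.25, 10.3 and 2.03 CPM, Thbs4 at 0.68, 1.25, 24.1 and 3.73 CPM and Cxcl3 at 0.17, 0.25, 1.62 and 5.43 CPM. Crabp1 had no UMI in a member. Over 12 alternatives the log2 fold change ranged from 3.88 to 9.07 for Crabp1, 1.92 to 4.5 for Thbs4 and 2.75 to 4.6 for Cxcl3. Ctss, at 4.01, 1.08, 18.2 and 13.3 CPM, a protease of antigen-presenting cells, turned to a log2 fold change of -0.77 without cells that held markers of other cell types. In interferon-low cells alone, 4 of 12355 genes (0.0324%) passed, namely Ctss, Crabp1, Tnnc2 and Thbs4, and 32 of 32 type I genes (median 0.61) and 5 of 5 IRG genes (0.44) were higher in miR-501KO. The direction of the type I and IRG lists thus held below the gate as well. There, 3 of 4 GBP genes were higher and 3 of 7 feedback inhibitors (median -0.02). Macrophage markers were higher in 13 of 14 genes (median 1.15), and interferon-low sums were not freed of macrophage-like cells. Their part in the direction of the lists was not tested.

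Within the members, no gene of the interferon and chemokine lists passed the test between genotypes, and the lists leaned in different directions. The gate set a minimum for Iigp1 and Gbp2 in every member, which also limits what genes that follow them can show here. Of 7644 genes tested, 13 (0.17%) passed the edgeR threshold, 11 (0.144%) higher and 2 (0.0262%) lower in miR-501KO, and 542 had an unadjusted p under 0.05. With the run as a block 17 (0.222%) passed, the 13 among them, 15 (0.196%) higher and 2 lower. With each library left out in turn, 53, 43, 65 and 30 passed. Higher in miR-501KO members were 4 of 6 IRG genes, 2 of 3 GBP genes, 12 of 27 type I genes (median log2 fold change -0.07) and 7 of 20 MHC class I genes (-0.16), and also 8 of 9 chemokines (0.54, 3 of them at an unadjusted p under 0.05) and 7 of 9 transcription factors (0.38, 4 of them), against 3837 of 7642 genes over all. Without the single mural-like member 15 genes passed, 14 higher and 1 lower. Ccl11 was one of these, with a log2 fold change of 1.76 in place of 0.49 and an edgeR adjusted p of 0.00338 in place of 0.794, within a range of 0.00338 to 1.0 over 13 alternatives. Cxcl10 had 1.17 in place of 0.19, with an edgeR adjusted p of 0.0853 in place of 0.954, within a range of 2.5e-05 to 1.0. Irf8 had a log2 fold change of 1.25 with an edgeR adjusted p of 0.349, Bst2 of -0.66 with 0.620 and Psmb8, a subunit of the immunoproteasome, of -1.13 with 0.150. Chodl had a log2 fold change of 0.40 with an edgeR adjusted p of 0.738. In the self-test of this comparison, 37.5% of genes changed 2-fold and 91% of genes changed 4-fold were recovered, so a 2-fold difference between genotypes was often not detectable with 25 to 56 members a library.

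What passed within the members was mostly RNA of muscle fibres. All 8 genes of the myofibre list tested were higher in miR-501KO members, and 7 passed the threshold. So did Myl1 and Mb, which encode a myosin light chain and myoglobin and were also higher. Ckm, the muscle creatine kinase, was at 19.7, 15.3, 137 and 140 CPM, a log2 fold change of 2.96 ± 0.28 (SE) with an edgeR adjusted p of 1.8e-05. Acta1, the skeletal actin, was at 73.3, 81.1, 340 and 347 CPM, and the calcium buffer Pvalb at 3.58, 3.06, 58.8 and 51.0 CPM. Mb, Tnnc2 and Tnni2 had log2 fold changes of 3.57, 2.55 and 2.38. In each of these genes both miR-501KO libraries lay above both Pax7Cre libraries. The RNA sat in few cells, however. In miR-501KO replicate 1, 1 member held 67.7% of the 2078 myofibre UMIs, and without it the summed level of the list there was 4.84 in place of 14.7 per 10000. Levels of over 20 per 10000 were found in 0, 1, 5 and 13 members, or 0%, 4%, 8.93% and 25%, and in 2.66%, 2.46%, 6.83% and 9.58% of interferon-low cells. The medians were 2.71, 2.40, 2.58 and 4.70 per 10000 in members and 2.10, 2.07, 2.29 and 1.94 in interferon-low cells. Without the richest member of each library 5 genes passed, of which Ckm (log2 fold change 2.80, edgeR adjusted p = 0.0431), Ier3 and Rnd3 were higher and Il6 and Cdkn2a lower, and without cells that held markers of other cell types 0 passed, with 315 at an unadjusted p under 0.05. Over 13 alternatives the adjusted p for Ckm ranged from 5.7e-18 to 0.385. DESeq2 called 8 genes. Whether fibre RNA came from the cells or from outside them was not tested.

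**Figure D5:**
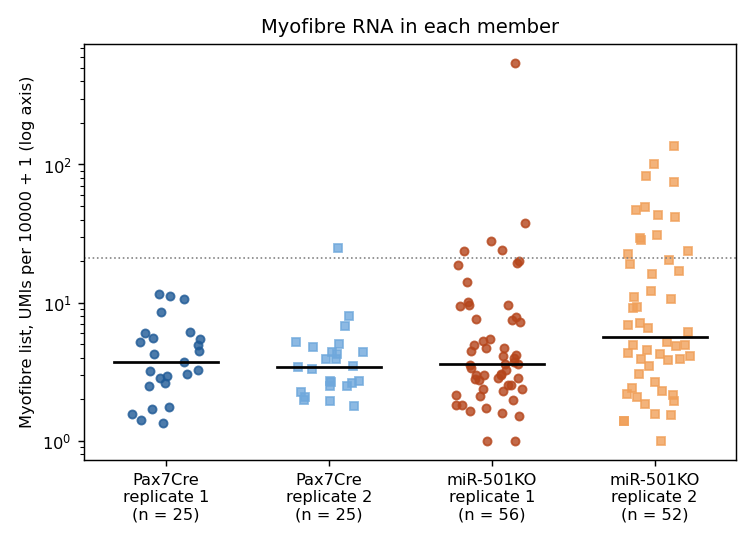
Level of the 10 myofibre genes in each member (points; y axis, UMIs per 10000 plus 1, log scale) by library (x axis). Bars are medians and the dotted line marks 20 per 10000 (21 on this axis). The medians lie at 2.71, 2.40, 2.58 and 4.70 per 10000 before the addition of 1, and the members above the line number 0, 1, 5 and 13.

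The genes that fell in miR-501KO members were Il6 and Cdkn2a. Il6, a cytokine of injury and inflammation, was at 25.0, 41.3, 4.96 and 2.94 CPM, but its UMIs lay in 2, 1, 4 and 2 members, so that single cells set these levels. In Pax7Cre replicate 2, 1 member held all 27 UMIs. Without the single mural-like member Il6 had too few UMIs to be tested. Cdkn2a, which encodes inhibitors of the cell cycle, was at 64.4, 68.8, 19.8 and 24.5 CPM in members and 118, 88.9, 84.1 and 96.6 CPM in interferon-low cells. Its log2 fold change in members was -1.63 ± 0.29 (SE), with an edgeR adjusted p of 0.0172 that ranged from 1.2e-04 to 0.337 over 13 alternatives and missed the threshold with DESeq2 (0.260), at a gate of 5 per 10000 (0.226, with a log2 fold change of -1.44) and without cells that held markers of other cell types (0.337, with a log2 fold change of -1.63). It was found in 57 of the 158 members.

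Whether the genotype difference itself differed between members and interferon-low cells was tested as an interaction with the library as a block. The gate that split the classes bounds Iigp1 and Gbp2 in both, and other interferon-induced genes follow these 2. For such genes and lists the interaction therefore cannot be told apart from the split, and its values are a description. Of 11798 genes 23 (0.195%) passed, 13 (0.11%) with a larger and 10 (0.0848%) with a smaller log2 fold change in members, and 620 had an unadjusted p under 0.05. With the run as a block 41 (0.348%) passed, 19 (0.161%) with a positive and 22 (0.186%) with a negative value, and 22 of the 23 were among them. With each library left out in turn, 85, 14, 37 and 37 passed. Besides 7 genes of the myofibre list, Bst2 of the type I list and Psmb8 and H2-T23 of the MHC class I list passed, all 3 with negative values. Bst2 was at 304, 239, 233 and 117 CPM in members and 55.6, 51.2, 101 and 71.4 CPM in interferon-low cells, so that it was lower in miR-501KO within members and higher below the gate. The interaction of Bst2 was -1.32 ± 0.19 (SE), with an edgeR adjusted p of 2.1e-04 that ranged from 1.3e-08 to 0.115 over 13 alternatives and passed in 12. Of 32 type I genes 4 had a positive interaction (median -0.70), and of 21 MHC class I genes 4 (median -0.31), against 6106 of 11796 genes. Without cells that held markers of other cell types 1 gene passed, and without mural-like cells in both classes 18. With the run as a block the transcription factor genes Irf7 and Irf8 also passed, with interactions of -1.61 and 1.43 and edgeR adjusted p of 0.0460 and 0.0217, within ranges of 0.0460 to 1.0 and 0.00742 to 1.0 over 13 alternatives.

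Cd74, the invariant chain of MHC class II, is itself induced by interferon, and the rule left out cells that held it. The paper also counts Cd74 among macrophage genes, and whether macrophage RNA had a part here was not tested. Pooled over the libraries, 160 cells met every other condition but held Cd74, and 29 of them (18.1%) passed the gate, against 158 of 1688 (9.36%) without it. Of the 29, 16 came from miR-501KO replicate 1. By library the shares with Cd74 were 5.26%, 17.5%, 27.6% and 16.7%, against 5.69%, 6.39%, 14.8% and 10.8% without it. Pax7Cre replicate 1 thus went the other way, and the 95% Wilson intervals with and without Cd74 overlapped in every library.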

How the data were processed

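Single cells of 4 libraries were captured with the Chromium 3′ chemistry (v3.1), and the authors deposited raw UMI counts per gene and barcode, made with Cell Ranger (6.0.2 per the file headers) on GRCm39. The submitters' processing notes also name Seurat, and its cell labels were not used here. From these counts, members, interferon-low cells and other classes were chosen by the limits given with the results, and a class was named for another cell type from at least 3 of its markers with at least 2 UMIs each. The members and the gene lists were chosen with earlier results of these data known.

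UMIs were summed per library and class, since the library, a pool of mice, is the replicate. Genotypes were compared with edgeR's quasi-likelihood test (edgeR 4.0.16, R 4.3.3; TMM scaling, filterByExpr, Benjamini-Hochberg adjustment over all genes tested, threshold 0.05), with DESeq2 1.42.0 as an alternative. The p-values measure the spread between libraries of pooled mice. Because the design states that each run held both genotypes, replicate numbers mark a shared run and pair the libraries. Deviations of same-numbered libraries from their group means correlated at 0.01 in members and 0.01 in all non-cycling Pax7+ cells. Ratios of members to interferon-low cells used a pseudocount of 1 CPM and genes with a mean of at least 2 CPM. Genes were named from the lists, and beyond them at most 15 higher and 10 lower by the lowest or highest ratio of the 4 libraries, at most 5 a direction in each genotype test with the same sign in each run, and the 10 most like the gate level. Genes mentioned as past a threshold, or as interactions, beyond this rule were chosen after their values were seen.

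No library repeated another: chi-square over its degrees of freedom was 2.42 between the Pax7Cre and 3.24 between the miR-501KO libraries. Scrublet marked 0.177% of cells as doublets and so had not worked; none of the members was marked, and leaving out the top 5% of its scores was an alternative. Other alternatives were the gate at 2 or 5 per 10000, thinning to 5000 UMIs, the quality limits, other scalings and filters, the run block, each library left out, and cells with markers of other cell types, mural-like cells or the richest cells in fibre RNA left out, the last 2 chosen after seeing the data. On simulated data the genotype test in all non-cycling Pax7+ cells recovered 73.5% of genes changed 2-fold and the interaction test 25.5%. Wilson intervals cover counting error only. Some genes are not reported here.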

Additional observations from a re-analysis of the deposited data

Results flagged for a closer look

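For 23 genes the genotype difference itself differed between members and interferon-low cells in the edgeR interaction test, with Benjamini-Hochberg adjustment over 11798 genes. Values are interactions on the log2 scale, and positive values mean a larger log2 fold change of miR-501KO over Pax7Cre in members.

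Genes of muscle fibres had positive values, with Pvalb at 3.24, Ckm at 2.12, Myl1 at 1.79, Acta1 at 1.63, Tnnc2 at 1.57, Tnni2 at 1.57, Tnnt3 at 1.24 and Mylpf at 1.06. Without the richest member of each library, the edgeR adjusted p was 0.737 for Myl1 and 0.125 for Ckm, within ranges over 13 alternatives of 2.3e-11 to 0.979 and 7.9e-07 to 0.620. Chaperone genes of the heat shock response also had positive values, with Hspa1b at 1.75, Hspa1a at 1.71 and Dnajb1 at 1.32. Hspa1a was at 23.2, 35.2, 52.4 and 297 CPM in members and 82.8, 100, 75.7 and 225 CPM in interferon-low cells, so miR-501KO replicate 2 stood apart in both classes. Hspa1a and Hspa1b are near-identical copies whose reads are hard to part. The remaining positive values were Bambi, a decoy receptor of the TGF-beta family, at 3.66 and the immediate early gene Ier3 at 1.18.

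Interferon-induced genes had negative values, with H2-T23 at -1.59, Psmb8 at -1.40 and Bst2 at -1.32. The gate split the classes by interferon-induced RNA, so for these genes the interaction cannot be told apart from the split. H2-T23, a non-classical heavy chain, was at 66.2, 47.4, 36.1 and 16.7 CPM in members and 18.3, 17.8, 29.7 and 22.2 CPM in interferon-low cells. Psmb8 was at 113, 71.9, 48.1 and 36.3 CPM in members and 21.7, 24.4, 28.7 and 29.1 CPM in interferon-low cells. For both genes the 2 miR-501KO libraries lay below the 2 Pax7Cre libraries in members and above them in interferon-low cells. Without cells that held markers of other cell types the edgeR adjusted p was 0.214 for each, while the interactions were -1.5 for Psmb8 and -1.79 for H2-T23, within ranges over 13 alternatives of 6.7e-04 to 0.701 for H2-T23 and 6.0e-04 to 0.701 for Psmb8.

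The other negative values were Fn1 at -1.18, Cdkn2a at -1.39, Il6 at -4.30, the alarmin gene Il33 at -4.42, Rgs5 at -5.24, the chemokine gene Ccl4 at -9.83 and the proteoglycan gene Lum at -12.74. Lum and Ccl4 were at 0 UMIs in the members of both miR-501KO libraries, so their fitted values depend on the prior count. Rgs5 stood on the single mural-like member, and its edgeR adjusted p was 1.0 without mural-like cells in both classes, within a range of 2.5e-26 to 1.0 over 13 alternatives. The UMIs of Il6 lay in 9 members. Without mural-like cells in both classes the interactions of Il6 (-2.68), Il33 (-3.67), Ccl4 (-9.84) and Bambi (3.61) did not pass either, with edgeR adjusted p of 0.758, 0.0643, 0.0525 and 0.0525, within ranges over the alternatives of 2.3e-04 to 0.998, 3.8e-07 to 0.976, 0.00305 to 1.0 and 0.00444 to 1.0.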

How the results depend on the processing

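The share of members was higher in miR-501KO under every alternative run, by 5.06 to 7.45 percentage points and by 4.79 to 8.77 points with each library left out. The mean within-run difference, the value with the run as a block, was 6.78. The count of genes at least 2-fold higher in members went from 65 to between 44 and 85, and 83 to 93 with a library left out, and of those at least 2-fold lower from 25 to between 8 and 70, and 39 to 53. In members, the genotype test called 13 genes, against 8 with DESeq2, 73 without the filter on low counts, 17 with the run as a block, 4 at a gate of 5 per 10000, 5 without the members richest in myofibre RNA and 0 without cells with markers of other cell types. With each library left out, in the order given in the text, it called 53, 43, 65 and 30, where the lone library of a group is assumed to vary like the other group. In all non-cycling Pax7+ cells it called 12, against 130 without the filter, 79 with the run as a block, 41 without the highest Scrublet scores and 55, 60, 64 and 117 with a library left out. The interaction called 23, against 6 with DESeq2, 50 without the filter, 41 with the run as a block, 7 at a gate of 5, 7 without the richest members, 1 without cells with markers of other cell types and 85, 14, 37 and 37 with a library left out. In these tests the run block also ended the interaction call of Lum (edgeR adjusted p = 0.144, with a range of 1.3e-08 to 1.0 over 13 alternatives) and brought calls of Hspa1a, Hspa1b and Dnajb1 in members (edgeR adjusted p = 0.00339, 0.0476 and 0.0115, with ranges over 13 alternatives of 1.3e-27 to 1.0, 7.1e-16 to 1.0 and 2.8e-16 to 1.0) and of Rgs5, Lum, C1qa, Ccl4, Pvalb and Slfn8 in all non-cycling Pax7+ cells, and of Ccl2 in the interaction. Besides these and the calls given in the text, it changed no other call of a named gene. Values that turned sign were Ctss (-0.77) and Rgs5 (0.026, and 0.0011 without the mural-like cells) between genotypes in all non-cycling Pax7+ cells and the interaction of Il6 (0.56), each without cells with markers of other cell types, the log2 ratio of members to interferon-low cells of Ifngr1 (0.090) under the same setting, and those of Ifngr2 (0.023) and Myf5 (-0.13) in thinned cells. With a library left out, the log2 fold change ranged from -0.063 to 1.49 for Ccl11 and from -0.50 to 1.56 for Cxcl10 in members, and from -2.78 to 4.10 for Ccl4 in all non-cycling Pax7+ cells. The causes were not tested. Tests of 2 libraries a group, with 25 members in each Pax7Cre library, limit what a missing call can say.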

Other observations

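Cells of other types also passed the gate. Of 20 endothelial-like cells 11 (55%, 95% Wilson interval 34.2% to 74.2%) passed the gate of 3 per 10000 UMIs for Iigp1 and Gbp2, and of 66 fibroblast-like cells 8 (12.1%, 6.27% to 22.1%). Schwann-like cells passed in 8 of 184 (4.35%, 2.22% to 8.34%). These classes held 4 to 69 cells per library and differ in depth, with median UMI counts of 29583, 39801.5 and 12267.5, and their shares were not compared by a test. Mural-like cells passed in 24.1%, 40%, 39.2% and 27.8% of cells by library, with Iigp1 at 1.51, 5.22, 5.32 and 3.76 per 10000 UMIs, so the share was higher in miR-501KO in the first run and lower in the second.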
